A study of Mus musculus with 12 samples.

Results

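The genes described here are those of the vascular endothelial growth factor (VEGF) system: the ligand genes Vegfa, Vegfb, Vegfc and Pgf, the receptor genes Flt1, Kdr and Flt4, and the co-receptor genes Nrp1 and Nrp2. They were chosen by name, with earlier results of these data known. All 9 were found in the count table among its 35434 genes and passed the filter on low counts, as did 15269 genes in all. The tumours grew from 4T1, a mouse mammary carcinoma line used as a model of triple-negative breast cancer, after 1000000 cells were placed under the skin of female BALB/c mice aged 6 to 8 weeks. The 4 groups held 3 tumours each, every tumour from its own mouse. HI mice lived in a chamber at the air pressure of 3500 m and received IOX2, HC mice lived in the chamber and received vehicle, MI mice lived at about 1500 m and received IOX2, and MC mice lived at about 1500 m and received vehicle. IOX2 inhibits PHD2, an oxygen-sensing enzyme through which cells break down hypoxia-inducible factors (HIFs) when oxygen is at hand. It was injected into the abdomen once a day at 10 mg/kg for 10 days, starting on day 9 after inoculation, and tumours were collected on study day 22. Every group carried the same transplanted line in hosts of the same strain, so cells of the tumour and of the host are mixed in each library. Only HI and HC mice lived in the chamber, so altitude and chamber housing cannot be told apart, and altitude stands for both here.

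VEGF-A is the main signal by which hypoxic tissue calls in blood vessels, and its gene is a classical target of HIFs. It acts on endothelial cells mostly through VEGFR2, the product of Kdr, while VEGFR1, the product of Flt1, binds VEGF-A tightly but signals weakly and serves in part as a decoy. Of the VEGF receptors, VEGF-B and placental growth factor, the product of Pgf, bind VEGFR1 alone. VEGF-C acts on lymphatic vessels through VEGFR3, the product of Flt4. Neuropilins, the products of Nrp1 and Nrp2, hold VEGF ligands at the cell surface beside the receptors and also bind class 3 semaphorins together with plexins.

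Libraries held between 31661685 counts (HC1) and 40019343 counts (MI2). Levels across genes are given as FPKM, which the authors scaled by gene length and library total, and levels across libraries as CPM (counts scaled to library size with TMM factors, in the standard unit of edgeR). Epithelial tumour cell markers summed to between 3449 and 4602 CPM per library and the 12 endothelial markers to between 460 and 739 CPM, and no gene of either list was at 0 in any library. In edgeR's quasi-likelihood test, with Benjamini-Hochberg adjustment over all genes tested and a threshold of 0.05, none of the 9 genes passed in any of 7 comparisons. The comparisons were HI against MI, HC against MC, HI against HC, MI against MC, altitude averaged over the 2 treatments, IOX2 averaged over the 2 altitudes, and the interaction of both. Among all genes, 0% passed in HI against MI, in HC against MC, in HI against HC and in the interaction, 0.0262% in MI against MC, 0.498% in the altitude average and 0.0393% in the IOX2 average. At an unadjusted p under 0.05 stood 4 of the 9 genes in the altitude average (17.3% of all genes), 4 in HI against MI (15.2%) and 1 in HC against MC (12%). None of the 9 did in HI against HC (4.85% of all genes), MI against MC (9.39%), the IOX2 average (5.12%) or the interaction (8.21%). DESeq2 called 3 of the 9 in the altitude average (5.2% of all genes it tested) and 2 in HI against MI (2.4%), and limma-voom and limma on FPKM called none.

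By mean level over the 12 libraries, Nrp2 led the system and Flt4 closed it. Nrp2 averaged 35.6 ± 9.25 FPKM (SD, n = 12) and Vegfb averaged 33.4 ± 4.08. Vegfa, the best known ligand, averaged 18.0 ± 5.12 FPKM. Then came Vegfc at 12.3 ± 3.37, Nrp1 at 11.4 ± 4.47 and Pgf at 10.6 ± 2.28 FPKM, which differed by less than their spread over libraries. The receptors were the lowest, with Flt1 at 5.83 ± 1.07, Kdr at 4.04 ± 0.873 and Flt4 at 2.08 ± 0.692 FPKM. Of neighbours in this order, Vegfb and Vegfa had ranges that did not overlap (26.8 to 40.9 against 10.7 to 25.6 FPKM), while the ranges of every other neighbouring pair overlapped. Nrp1 varied most across libraries, 4.70-fold between its lowest and highest CPM, and Vegfb least, 1.45-fold.

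**Figure D1:**
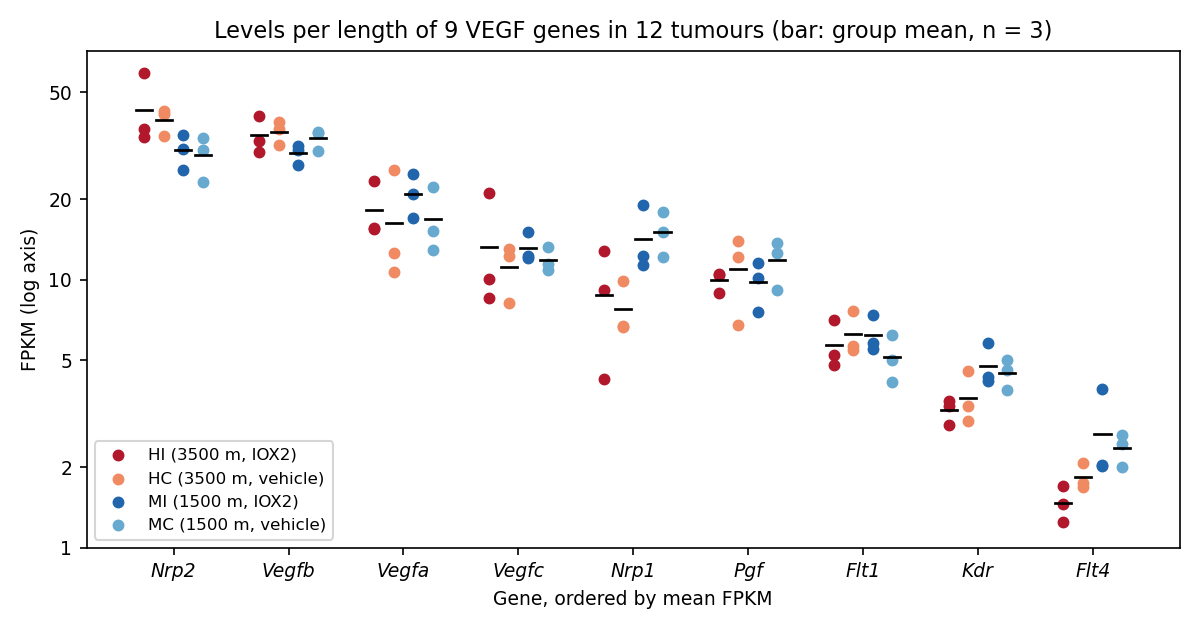
FPKM on a log axis for each of the 9 genes in the 12 libraries, coloured by group, with a bar at each group mean (n = 3). Nrp2 and Vegfb lie highest, between 23.2 and 59.0 FPKM, and the 3 receptor genes lie below 8 FPKM.

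Among the ligands, Vegfa did not separate any pair of groups. It was at 100.3, 63.3 and 64.2 CPM in the HI tumours, 43.2, 107 and 53.7 in the HC tumours, 102, 84.4 and 76.5 in the MI tumours, and 62.2, 92.8 and 54.2 in the MC tumours. One tumour stood high and the others lower in HI, HC and MC alike, and all 4 groups overlapped. Its altitude average was a log2 change of -0.12 (SE 0.23), a 0.919-fold level with a 95% interval of 0.652 to 1.29. Its IOX2 average was a log2 change of 0.24 (SE 0.23, edgeR adjusted p = 0.801), and in MI against MC the change was 0.33 (SE 0.32, edgeR adjusted p = 0.656). In HI against HC it was 0.16 (SE 0.32) on the same scale. At simulated altitude the log2 change of Vegfa was -0.21 (SE 0.32) in HI against MI and -0.04 (SE 0.32) in HC against MC.

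Vegfb, which encodes the ligand tied to fatty acid uptake by vessels as well as to VEGFR1, was the steadiest gene of the system. It was at 54.0, 37.6 and 41.4 CPM in HI, 39.3, 49.8 and 47.7 in HC, 38.6, 39.4 and 37.2 in MI, and 38.1, 45.4 and 45.6 in MC. The 3 MI tumours lay close together, and each other group overlapped with them. The altitude average of Vegfb was a log2 change of 0.15 (SE 0.10), or 1.11-fold with a 95% interval of 0.956 to 1.28. Within treatments the change was 0.21 (SE 0.14) in HI against MI and 0.08 (SE 0.14) in HC against MC.

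Vegfc, the lymphatic growth factor gene, stood at 40.9, 18.6 and 15.8 CPM in HI, 14.9, 24.5 and 23.4 in HC, 28.0, 22.4 and 24.5 in MI, and 20.1, 24.8 and 21.7 in MC. HI1 held the highest level of all libraries, while HI3 and HC1 held the lowest. Pgf, whose product is made by placenta, tumours and their stroma, stood at 23.5, 19.0 and 22.5 CPM in HI, 14.3, 30.4 and 27.0 in HC, 21.8, 24.5 and 17.9 in MI, and 19.5, 29.9 and 27.5 in MC. Both genes overlapped between all groups. The altitude average was a log2 change of -0.04 (SE 0.22) for Vegfc, with a 95% interval of 0.701 to 1.35 in fold, and of -0.04 (SE 0.18) for Pgf, with an interval of 0.744 to 1.27. The IOX2 average was 0.21 (SE 0.22) for Vegfc and -0.20 (SE 0.18) for Pgf.

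The level of Vegfa against the other ligands was taken as its FPKM over the summed FPKM of Vegfb, Vegfc and Pgf. This ratio was 0.301 to 0.322 in HI, 0.208 to 0.389 in HC, 0.365 to 0.445 in MI and 0.217 to 0.357 in MC. In each library the other 3 ligand transcripts together outnumbered Vegfa per length. The ratio was higher with IOX2 by 0.35 on the log2 scale, which missed the threshold (two-sided exact permutation within altitude, p = 0.08, adjusted p = 0.213 over 8 ratio tests). Without HC2, the HC library with the highest ratio, the difference was 0.49 (exact permutation adjusted p = 0.04). Leaving out each of the 12 libraries in turn gave 0.25 to 0.49, with an exact permutation adjusted p between 0.04 and 0.547.

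**Figure D2:**
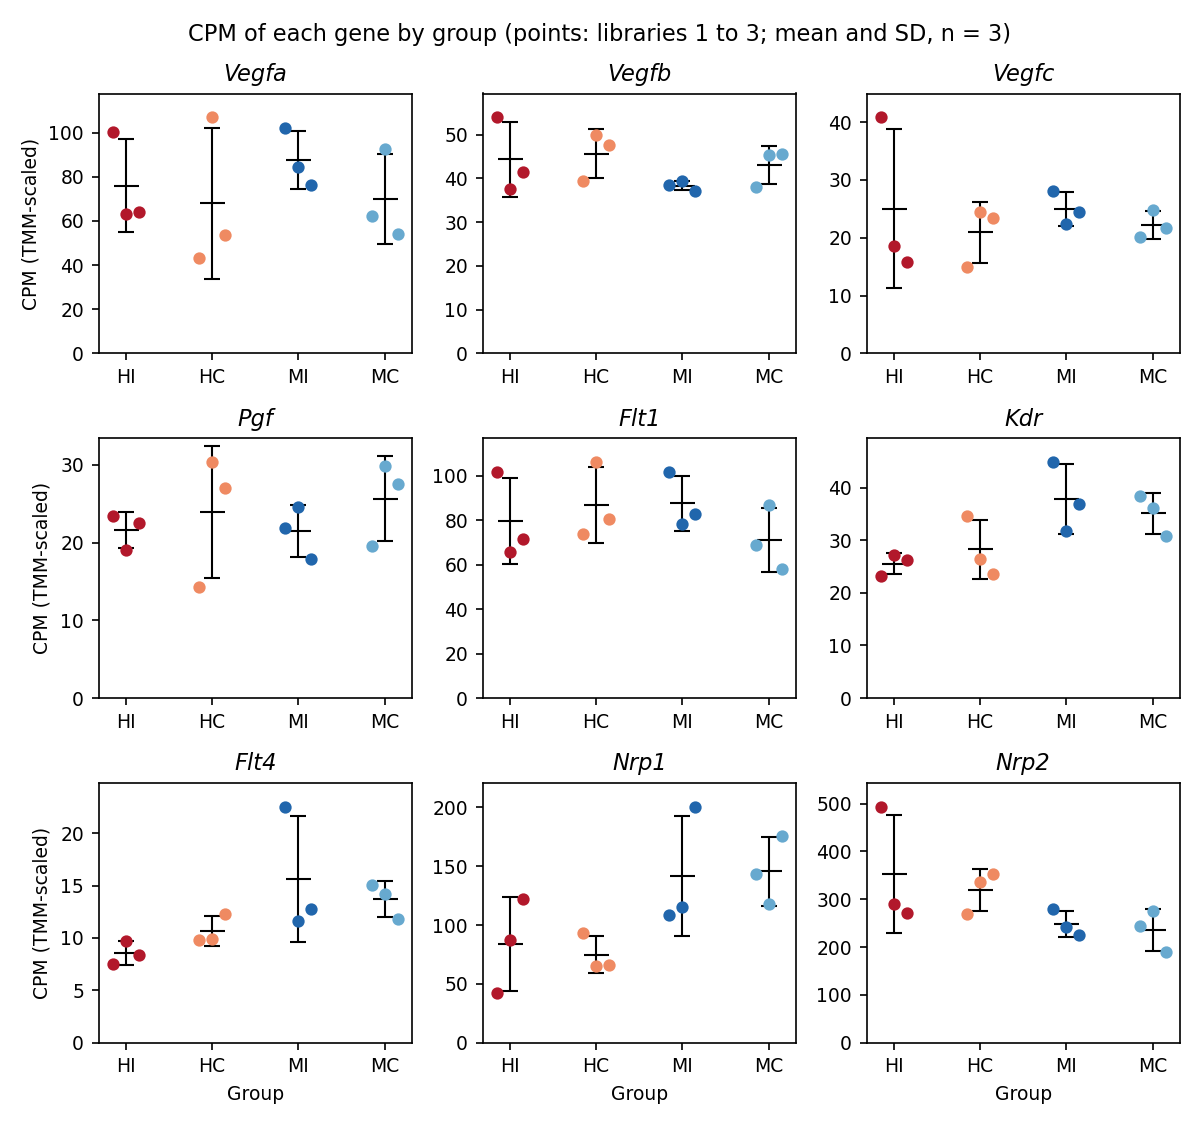
CPM of each of the 9 genes in HI, HC, MI and MC tumours, with the points for libraries 1 to 3 from left to right and the mean and SD (n = 3) in black. Kdr and Flt4 lie lower in HI than in MI without overlap, Nrp1 lies lower in HC than in MC without overlap, and Vegfa overlaps in all groups.

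Among the receptors, Kdr and Flt4 had lower means at simulated altitude in both treatments, and Flt1 in IOX2 mice alone. None of the 3 passed the threshold. Flt1 was at 102, 65.8 and 71.6 CPM in HI, 73.8, 106 and 80.6 in HC, 102, 78.4 and 82.8 in MI, and 68.9, 86.7 and 58.1 in MC. Its groups overlapped in all 4 pairs, and its altitude average was a log2 change of 0.08 (SE 0.14), or 1.05-fold with a 95% interval of 0.850 to 1.31. The change of Flt1 was -0.14 (SE 0.20) in HI against MI and 0.29 (SE 0.20) in HC against MC. It was -0.12 (SE 0.20) in HI against HC and 0.30 (SE 0.20) in MI against MC. The interaction was -0.42 (SE 0.28, edgeR adjusted p = 0.652).

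Kdr, the gene of the main signalling receptor of endothelium, was at 23.3, 27.2 and 26.2 CPM in HI, 34.6, 26.5 and 23.7 in HC, 44.9, 31.8 and 36.8 in MI, and 38.5, 36.1 and 30.7 in MC. All 3 HI tumours lay below all 3 MI tumours, whereas HC1 lay above MC3. Between HC and MC libraries of the same number, Kdr was lower in HC in all 3. The altitude average was a log2 change of -0.44 (SE 0.11), a 0.737-fold level with a 95% interval of 0.622 to 0.874, and it missed the threshold (edgeR unadjusted p = 0.00217, adjusted p = 0.0948). In HI against MI the change was -0.57 (SE 0.16, edgeR adjusted p = 0.213), and in HC against MC it was -0.31 (SE 0.16, edgeR adjusted p = 0.464). In MI against MC it was 0.11 (SE 0.16).

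Flt4, the gene of the lymphatic receptor, which is also made by the sprouting endothelium of tumours, was at 7.54, 9.74 and 8.39 CPM in HI, 9.85, 9.89 and 12.3 in HC, 22.5, 11.6 and 12.8 in MI, and 15.1, 14.2 and 11.8 in MC. The HI tumours lay below every MI and every HC tumour, and HC and MC overlapped. MI1 stood far above the rest. The altitude average was a log2 change of -0.61 (SE 0.16), a 0.653-fold level with a 95% interval of 0.511 to 0.836 (edgeR unadjusted p = 0.00284, adjusted p = 0.105). In HI against MI the change was -0.87 (SE 0.23, edgeR adjusted p = 0.1999), and it was -0.52 (SE 0.17) without MI1. In HC against MC it was -0.36 (SE 0.23) and in MI against MC 0.19 (SE 0.23). The interaction was -0.51 (SE 0.32, edgeR adjusted p = 0.644), so a difference between treatments was not shown.

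Groups without overlap were counted too. Of the 9 genes, 2 did not overlap in HI against MI, Kdr and Flt4, both lower in HI (14.6% of all genes did not overlap there, in either direction). Nrp1 alone did not in HC against MC (21.7% of all genes), and Flt4 alone in HI against HC (11.4%). Over both treatments together, the 6 tumours at simulated altitude against the 6 at ambient altitude, none of the 9 was free of overlap (1.95% of all genes). Calls of these genes turned on the method and on single libraries. DESeq2 called Flt4 (log2 -0.88, adjusted p = 0.0220) and Kdr (-0.58, adjusted p = 0.0440) in HI against MI, where it called 379 genes in all. Leaving out MI2, edgeR called the same 2 genes there, with log2 changes of -1.04 (adjusted p = 0.0407) and -0.68 (adjusted p = 0.0496), among 520 genes in all (3.34% of those tested, against 0% with all libraries).

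Endothelial markers were also at lower levels in HI than in MI. In HI against MI all 12 of them had log2 changes below 0, with a median of -0.59 (all genes -0.01). At an unadjusted p under 0.05 stood 10 of them (15.2% of all genes in this comparison), and 0 were called by edgeR. In HC against MC 8 of 12 were below 0, with a median of -0.07. Their summed level was 460 to 498 CPM in HI, 534 to 631 in HC, 611 to 739 in MI and 586 to 634 in MC. In these bulk samples fewer endothelial cells and less RNA per cell cannot be told apart. Kdr was therefore also set against the geometric mean FPKM of the 12 markers. That ratio was 0.366 to 0.416 in HI, 0.255 to 0.352 in HC, 0.360 to 0.385 in MI and 0.326 to 0.434 in MC, with HI and HC apart and the other 3 compared pairs overlapping. Its altitude difference was -0.12 on the log2 scale (exact permutation p = 0.335, adjusted p = 0.447), with 0.04 in IOX2 mice alone and -0.28 in vehicle mice alone. The 5 lymphatic endothelial markers summed to 2.86 to 13.8 CPM in HI, 11.5 to 19.97 in HC, 9.49 to 96.8 in MI and 3.89 to 17.7 in MC. The 96.8 CPM belonged to MI1, the library with the highest Flt4. MI1 also had the highest sums of endothelial (739 CPM), mural cell (595 CPM) and skeletal muscle markers (410 CPM). The highest sums of fibroblast and adipocyte markers were in HC1 (8260 and 394 CPM). The part of these markers in the Flt4 values was not tested. Most markers of mural cells and fibroblasts also had changes below 0 in HI against MI, none of them called by edgeR. Of 8 mural cell markers 7 were below 0, with a median of -0.52 and 4 at an unadjusted p under 0.05, and they summed to 313 to 337 CPM in HI, 351 to 405 in HC, 396 to 595 in MI and 370 to 410 in MC. All 6 fibroblast markers were below 0, with a median of -0.33 and 2 at an unadjusted p under 0.05, and their sums of 5121 to 5314 CPM in HI lay inside the 4840 to 7003 CPM of MI. The part of these cells in the receptor values was not tested.

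The balance between Flt1, often described as a decoy, and Kdr was taken as the ratio of their FPKM. For libraries 1 to 3 it was 2.46, 1.36 and 1.54 in HI, 1.20, 2.26 and 1.92 in HC, 1.27, 1.39 and 1.27 in MI, and 1.01, 1.35 and 1.06 in MC. Flt1 exceeded Kdr per length in all 12 libraries. The altitude difference in the ratio was 0.51 on the log2 scale, or 1.42-fold, and missed the threshold after adjustment (exact permutation within treatment, p = 0.035, adjusted p = 0.14 over 8 ratio tests). Without HI2 it was 0.59 (exact permutation adjusted p = 0.04). Leaving out each of the 12 libraries in turn gave 0.38 to 0.64, with an exact permutation adjusted p between 0.04 and 0.26. These permutations did not use the replicate numbers, and HC was above the MC library of the same number in all 3 cases.

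Kdr and Flt4 had lower means at simulated altitude, neither past the threshold. The 250 bases before their first RefSeq starts are shown because of that shared direction. They are chr5:75978456-75978705 on the minus strand for Kdr and chr11:49609429-49609678 on the plus strand for Flt4, in build GRCm38.p6, which is older than the GRCm39 of the counts. Capitals mark the core of the hypoxia response element, ACGTG or GCGTG on either strand. The Vegfa window, chr17:46032378-46032627 on the minus strand, is given beside them as that of the classical HIF target.
Kdr: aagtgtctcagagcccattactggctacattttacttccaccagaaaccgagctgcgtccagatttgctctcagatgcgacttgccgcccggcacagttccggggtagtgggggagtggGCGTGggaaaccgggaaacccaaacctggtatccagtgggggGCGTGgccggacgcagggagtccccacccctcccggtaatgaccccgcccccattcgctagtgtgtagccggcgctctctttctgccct
Flt4: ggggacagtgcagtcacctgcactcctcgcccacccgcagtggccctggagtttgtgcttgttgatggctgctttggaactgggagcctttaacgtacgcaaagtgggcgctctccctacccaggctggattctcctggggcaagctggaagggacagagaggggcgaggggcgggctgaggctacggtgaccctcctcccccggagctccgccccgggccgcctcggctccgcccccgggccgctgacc
Vegfa: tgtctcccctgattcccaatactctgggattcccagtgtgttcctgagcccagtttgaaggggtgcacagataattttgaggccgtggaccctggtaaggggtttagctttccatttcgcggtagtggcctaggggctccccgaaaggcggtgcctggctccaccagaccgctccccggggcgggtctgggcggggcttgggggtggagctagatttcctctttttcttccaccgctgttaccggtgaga
Kdr had 2 matches, Flt4 had 0 and Vegfa had 0 in this window, and 38.6% of 32851 RefSeq promoter windows of that length held at least 1. The window of a second RefSeq start of Vegfa, chr17:46025164-46025413 on the minus strand, is not shown and had 2. The GC box GGGCGG on either strand was found 2 times before Kdr, 3 times before Flt4 and 2 times before Vegfa, and 32.7% of windows held it. The ETS core CCGGAA, the kind of motif bound by endothelial ETS factors, was found 1 time before Kdr and 0 times before Flt4 and Vegfa (12.0% of windows). In the windows shown, no match of one motif shared bases with a match of another. A match is a description of letters, and the known hypoxia element of Vegfa in mammals lies farther upstream than the Vegfa window shown.

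**Figure D3:**
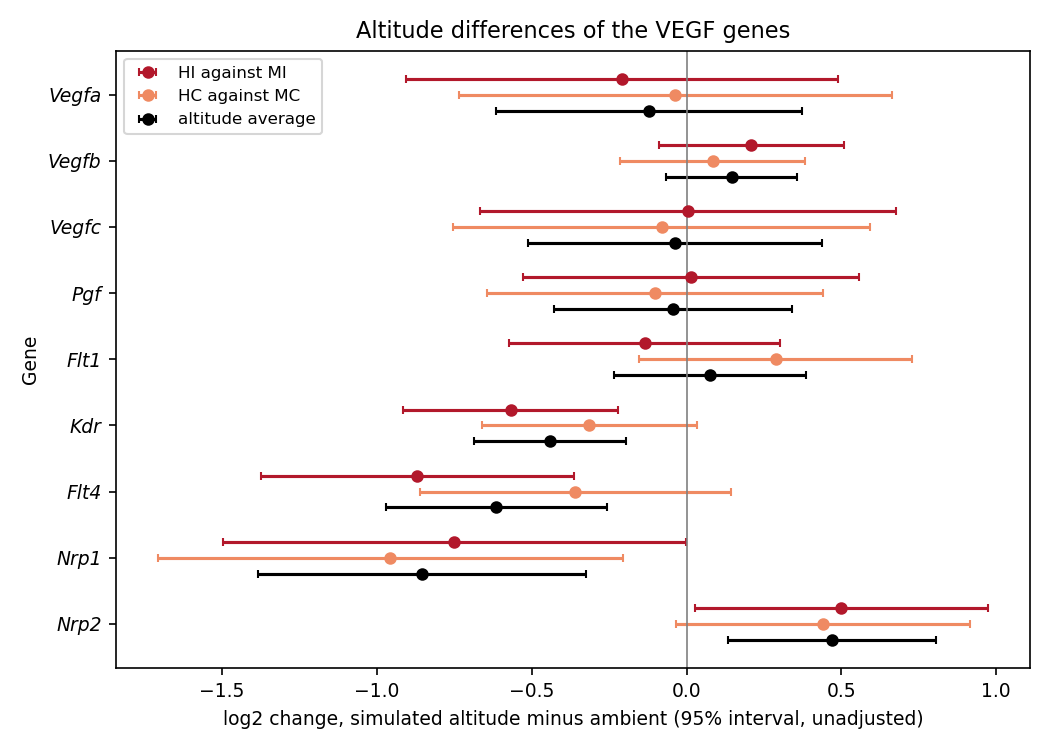
log2 change at simulated altitude against ambient altitude for each gene, with unadjusted 95% intervals, in IOX2 mice (HI against MI), in vehicle mice (HC against MC) and averaged. The averages of Kdr, Flt4 and Nrp1 lie below 0 (-0.44, -0.61 and -0.85) and that of Nrp2 above 0 (0.47), none past the adjusted threshold.

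The 2 neuropilin genes had altitude averages of opposite sign, neither past the threshold. Nrp1, whose product strengthens VEGF-A signalling through VEGFR2, was at 42.8, 87.8 and 122 CPM in HI, 93.2, 65.6 and 66.3 in HC, 109, 116 and 201 in MI, and 143, 118 and 176 in MC. Every HC tumour lay below every MC tumour, while HI3 lay above 2 of the MI tumours. HI1 had the lowest level of all. The altitude average of Nrp1 was a log2 change of -0.85 (SE 0.24), a 0.553-fold level with a 95% interval of 0.383 to 0.799 (edgeR unadjusted p = 0.00442, adjusted p = 0.123). It was -0.75 (SE 0.34, edgeR adjusted p = 0.328) in HI against MI and -0.96 (SE 0.34, edgeR adjusted p = 0.319) in HC against MC. The change in HI against MI was -0.42 without MI3 and -0.43 without HI1. Without HI3 the altitude average was -1.04 and passed (edgeR adjusted p = 0.0488), when 2.17% of all genes passed, and DESeq2 with all libraries gave -0.86 (adjusted p = 0.0136), beside Flt4 (adjusted p = 0.0127) and Kdr (adjusted p = 0.0136).

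Nrp2, the partner of VEGF-C and VEGFR3 and the neuropilin of lymphatic and venous endothelium, was at 494, 291 and 271 CPM in HI, 270.0, 336 and 354 in HC, 279, 243 and 225 in MI, and 243, 275 and 190 in MC. HI1 stood above the rest, the lowest HI and HC libraries lay inside the ambient range, and no pair of groups was free of overlap. The altitude average was a log2 change of 0.47 (SE 0.15), or 1.39-fold with a 95% interval of 1.098 to 1.75 (edgeR unadjusted p = 0.0101, adjusted p = 0.160), and it was 0.31 without HI1. In HI against MI it was 0.50 (SE 0.22, edgeR adjusted p = 0.314), and 0.18 without HI1. In HC against MC it was 0.44 (SE 0.22, edgeR adjusted p = 0.451). Reads of an antisense gene that overlaps Nrp2, Gm29083, numbered 43 over all libraries, against 7454 to 18914 for Nrp2 in each library.

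Set against each other, the ratio of Nrp1 to Nrp2 FPKM was 0.0723, 0.252 and 0.376 in HI, 0.288, 0.163 and 0.156 in HC, 0.326, 0.398 and 0.744 in MI, and 0.492, 0.358 and 0.773 in MC, in the order of libraries 1 to 3. HI3 alone of the 6 altitude tumours reached into the ambient range. The altitude difference was -1.34 on the log2 scale, or 0.395-fold (exact permutation within treatment, p = 0.01, adjusted p = 0.08 over 8 ratio tests), and the smallest p that the 400 arrangements allow is 0.005. Without HI2 it was -1.44 and without HI3 -1.59, each with an exact permutation adjusted p of 0.04. Leaving out each of the 12 libraries in turn gave -1.59 to -0.99, with an exact permutation adjusted p between 0.04 and 0.24. For IOX2 the difference of this ratio was -0.10 (exact permutation p = 0.82).

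The 250 bases before the first RefSeq starts of the neuropilin genes are shown because their altitude averages had opposite signs, neither past the threshold. They are chr8:128358823-128359072 for Nrp1 and chr1:62703067-62703316 for Nrp2, both on the plus strand in build GRCm38.p6, with the same capitals as above.
Nrp1: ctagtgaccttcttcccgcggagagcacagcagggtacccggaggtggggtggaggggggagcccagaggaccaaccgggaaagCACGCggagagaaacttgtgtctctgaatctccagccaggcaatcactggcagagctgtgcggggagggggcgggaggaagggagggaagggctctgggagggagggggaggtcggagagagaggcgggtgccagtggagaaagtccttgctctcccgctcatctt
Nrp2: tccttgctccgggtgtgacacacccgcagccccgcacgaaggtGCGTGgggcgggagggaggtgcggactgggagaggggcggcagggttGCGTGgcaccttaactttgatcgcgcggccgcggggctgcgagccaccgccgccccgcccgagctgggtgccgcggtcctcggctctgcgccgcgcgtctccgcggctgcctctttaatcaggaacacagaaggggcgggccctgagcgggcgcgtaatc
Nrp1 had 1 match to the hypoxia core and 1 GC box, and Nrp2 had 2 and 5. The ETS core was found in neither.

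Markers of leukocytes, adipocytes and red cells are given beside the neuropilins. In the altitude average, 17.3% of all genes had an unadjusted p under 0.05, 0.498% were called by edgeR and 46.2% were above 0. Of 7 macrophage markers, 6 had an altitude average below 0, 6 stood at an unadjusted p under 0.05 (5 lower and 1 higher) and 0 were called by edgeR. Their median was -0.27 (all genes -0.02), and they summed to 1168 to 1397 CPM in HI, 1353 to 1697 in HC, 1394 to 1599 in MI and 1459 to 1935 in MC. All 6 neutrophil markers had an altitude average above 0, with a median of 0.82, 4 at an unadjusted p under 0.05 and 0 called by edgeR. They summed to 174 to 210.2 CPM in HI, 71.8 to 312 in HC, 99.5 to 174 in MI and 88.8 to 124 in MC. No gene of either list was at 0 in any library. All 5 adipocyte markers had an altitude average above 0 at an unadjusted p under 0.05, with a median of 1.73 and 0 called by edgeR. They summed to 27.6 to 194 CPM in HI, 51.7 to 394 in HC, 48.1 to 98.2 in MI and 25.1 to 39.4 in MC. All 5 erythroid markers rose in the altitude average, with a median log2 change of 1.43, and unlike the other lists here, all 5 were called by edgeR. All 5 were also called as higher in the IOX2 average (0.0393% of all genes). They summed to 166 to 315 CPM in HI, 56.3 to 105 in HC, 87.5 to 123 in MI and 19.7 to 21.0 in MC. The part of these cells in the Nrp1 and Nrp2 values, or in those of the other genes, was not tested.

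Within groups, tumours that were high in one gene of the system were high or low in others. For each of 36 pairs of genes, log2 CPM was centred on the group means and correlated over the 12 libraries, with exact permutation within groups, and 8 pairs passed after Benjamini-Hochberg adjustment. The values of a library share its scaling and its mix of cells, and these correlations were added after values were seen. Nrp1 and Nrp2 ran opposite, with Pearson r = -0.92 (exact permutation p = 0.00154, adjusted p = 0.0278) and Spearman rho = -0.90 (exact permutation p = 0.00154). Leaving out HI1 and HI3, the 2 libraries farthest from the median of Nrp1, r was -0.83. Vegfa and Flt1 ran together, with r = 0.92 (exact permutation p = 0.00231, adjusted p = 0.0278) and rho = 0.88 (exact permutation p = 0.00309), and r = 0.91 without MC2 and HC2. Vegfb and Pgf, whose products bind VEGFR1 and no other VEGF receptor, had r = 0.76 (exact permutation p = 0.00154, adjusted p = 0.0278) and rho = 0.78 (exact permutation p = 0.00231), and r = 0.93 without HI1 and HI2.

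The other 5 pairs passed with an exact permutation adjusted p of 0.0382 for Pearson's r each. Vegfa had r = 0.70 with Vegfc (rho = 0.64, exact permutation adjusted p = 0.159), -0.67 with Nrp1 (rho = -0.72, exact permutation adjusted p = 0.0278) and 0.71 with Nrp2 (rho = 0.75, exact permutation adjusted p = 0.0868). Flt1 had r = 0.85 with Nrp2 (rho = 0.83) and 0.78 with Vegfc (rho = 0.75), each rho with an exact permutation adjusted p of 0.0868. Without the 2 libraries farthest out, r kept its sign in all 8 pairs and lay between 0.75 and 0.93 in size. The rank correlation missed the threshold in 4 of the 8.

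**Figure D4:**
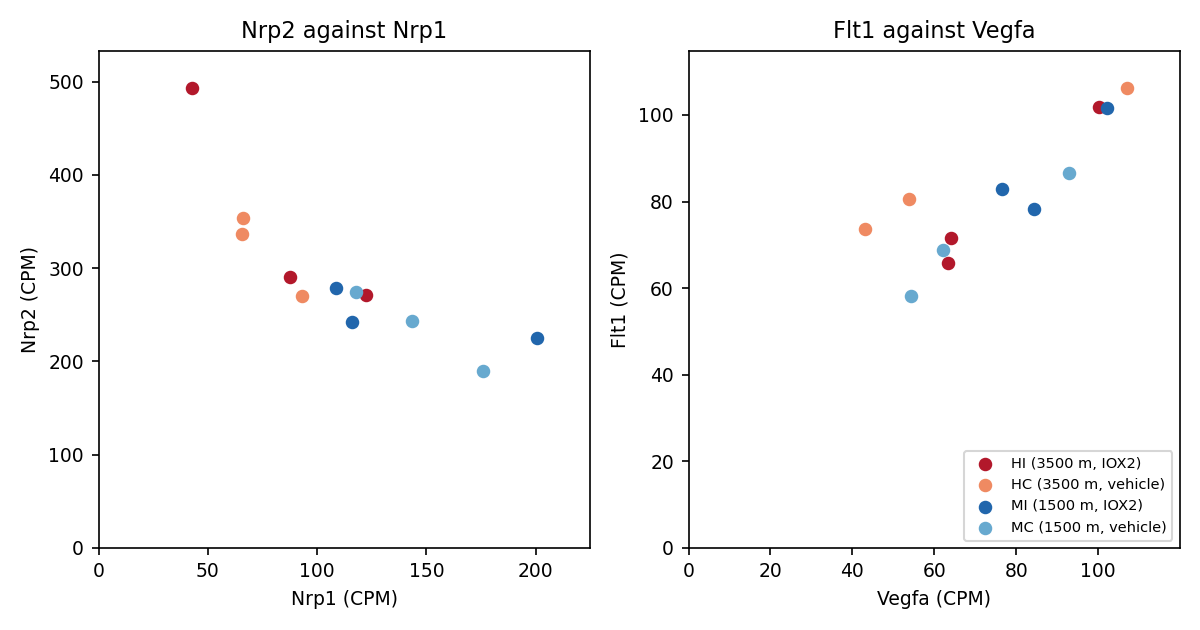
Nrp2 against Nrp1 (left) and Flt1 against Vegfa (right), in CPM, 1 point per library, coloured by group. The library lowest in Nrp1 (42.8 CPM, HI1) is the highest in Nrp2 (494 CPM), and the 3 libraries above 100 CPM of Vegfa also hold the 3 highest Flt1 levels.

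As a description, the genes most like each gene by Pearson's r of log2 CPM over the 12 libraries, among 13829 named genes, were as follows. Vegfa was nearest to Prss12 (r = 0.94), Il12rb1 and Glipr2, and Flt1 to Ppp2r5b (0.94), Xdh and Extl1. Kdr was nearest to Col8a2 (0.96), Nxpe4 and Zeb1, and Flt4 to Hid1 (0.95), Lama4 and Calhm2. Nrp1 was nearest to Tcaf1 (0.95), Slc16a10 and Pigbos1, and Nrp2 to Snx9 (0.97), Piezo1 and Adam8. For Vegfb the nearest was Ndufa4l2 (0.92), followed by H2-T22 and Capn1, for Vegfc Pla2g12a (0.91), and for Pgf Ints11 (0.89), followed by Sympk and Prok2. No gene of the VEGF system was among the 3 nearest to another.

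Genes downstream and beside the receptors were read from lists, which were chosen with earlier results of these data known. Counts of calls in them are therefore no test of the lists. Of 12 genes that VEGF induces in endothelium, 2 fell past the adjusted threshold in the altitude average (0.498% of all genes passed, in either direction). Below 0 were 10 of the 12, and the median was -0.16 (all genes -0.02, with 46.2% above 0). The 12 endothelial markers stand beside this, all below 0 in the altitude average with a median of -0.36 and 0 called by edgeR. At an unadjusted p under 0.05 stood 10 of them (17.3% of all genes). Their median was -0.59 in HI against MI, -0.07 in HC against MC and -0.46 in HI against HC. For the VEGF-induced genes these medians were -0.31, -0.20 and 0.03. The part of the endothelial markers in this list and in the next was not tested. Adamts9, which encodes a matrix protease, fell by 0.70 on the log2 scale (SE 0.11, edgeR adjusted p = 0.0389), with means of 15.5 CPM in HI, 19.8 in HC, 31.4 in MI and 25.99 in MC. Dll4, the Notch ligand gene of sprout tips, fell by 0.45 (SE 0.07, edgeR adjusted p = 0.0391), with 16.7, 17.1, 22.7 and 23.3 CPM in the same groups. Hlx, a transcription factor gene (-0.30, edgeR adjusted p = 0.175), and Esm1, a tip cell gene (-0.51, edgeR adjusted p = 0.234), did not pass.

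The 15 brakes and partners of the receptors were also chosen with earlier results known, so their calls do not test the list. Of the 15, 2 fell past the adjusted threshold in the altitude average (0.498% of all genes passed, in either direction). Both are known as inhibitors of vessel growth. Below 0 were 12 of the 15 (46.2% of all genes were above 0), and the median was -0.16. Vash1 fell by 0.68 (SE 0.07, edgeR adjusted p = 0.00531), with the smallest p of all genes tested there. Its means were 19.9 CPM in HI, 22.6 in HC, 33.5 in MI and 34.2 in MC. Thbs1, the thrombospondin gene, fell by 0.59 (SE 0.11, edgeR adjusted p = 0.0464), with 577 CPM in HI, 468 in HC, 847 in MI and 719.7 in MC. Cdh5, the junction gene whose product partners VEGFR2 (-0.37, edgeR adjusted p = 0.0939), and Spry4, a feedback inhibitor gene (-0.16, edgeR adjusted p = 0.239), did not pass. Vash1 was called without any 1 of the 12 libraries. The other calls were not: adjusted p reached 0.112 for Adamts9 without MC3, 0.112 for Dll4 without MC3 and 0.130 for Thbs1 without MC3, and leaving out 7 libraries in turn ended the call of Adamts9, 9 that of Dll4 and 10 that of Thbs1. With all libraries, limma on FPKM ended the calls of Adamts9 and Dll4 in each of its 3 settings, with adjusted p between 0.0531 and 0.116. Thbs1 missed the threshold with DESeq2 size factors in edgeR (adjusted p = 0.0501), with limma-voom (0.0568), with limma on log2(FPKM + 1) (0.0604) and with limma on unfiltered FPKM (0.116).

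Of 22 genes that relay the receptor signal, 0 were called by edgeR in the altitude average (0.498% of all genes). At an unadjusted p under 0.05 stood 4 of them, all lower (17.3% of all genes, in either direction). They were Pik3r1, a regulatory subunit of PI3 kinase (-0.37, edgeR adjusted p = 0.0587), Nos3, the endothelial nitric oxide synthase (-0.50, edgeR adjusted p = 0.0695), the adaptor gene Nck1 (-0.47, edgeR adjusted p = 0.160) and the kinase gene Prkcb (-0.51, edgeR adjusted p = 0.186). The list's median was -0.0175, against -0.0159 for all genes. Of 12 semaphorins and plexins, which share the neuropilins, 0 were called by edgeR and 5 had an unadjusted p under 0.05 (17.3% of all genes). Sema3e had an altitude average of 0.87 (edgeR adjusted p = 0.0702), Sema3b of -0.49 (edgeR adjusted p = 0.132), the plexin gene Plxnd1 of -0.31 (edgeR adjusted p = 0.251) and Sema3d of -1.46 (edgeR adjusted p = 0.252).

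Of 15 HIF target genes other than Vegfa, 13 had an altitude average above 0 (46.2% of all genes), with a median of 0.27. At an unadjusted p under 0.05 stood 4 of them (17.3% of all genes), and 0 were called by edgeR. The 4 were the glucose transporter gene Slc2a1 (0.61), the glycolysis genes Ldha (0.31) and Pgk1 (0.34), and the mitophagy gene Bnip3 (0.37). In HI against MI 13 of 15 were above 0 with a median of 0.48, and 8 stood at an unadjusted p under 0.05 (15.2% of all genes). In HC against MC 8 of 15 were above 0 with a median of 0.10, and 0 stood at an unadjusted p under 0.05 (12% of all genes). In HI against HC 14 of 15 were above 0 with a median of 0.29, and in MI against MC 1 of 15 with a median of -0.15. The interaction was above 0 for 15 of 15 (47.6% of all genes), with a median of 0.43 and 0 called by edgeR. Summed, the list reached 4341 to 6503 CPM in HI, 2963 to 5355 in HC, 3285 to 4666 in MI and 3822 to 4489 in MC. Within groups the list's mean log2 CPM had r = 0.68 with Vegfa (exact permutation p = 0.112, adjusted p = 0.252 over 18 relations) and rho = 0.58 (exact permutation p = 0.113). With Pgf it had r = 0.88 (exact permutation p = 0.00463, adjusted p = 0.0648) and rho = 0.84 (exact permutation p = 0.00926), with Vegfb r = 0.79 (exact permutation p = 0.0108, adjusted p = 0.0648) and rho = 0.76 (exact permutation p = 0.0116), and with Nrp1 r = -0.70 (exact permutation p = 0.01003, adjusted p = 0.0648) and rho = -0.69 (exact permutation p = 0.0301). None of the 18 relations passed.

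**Figure D5:**
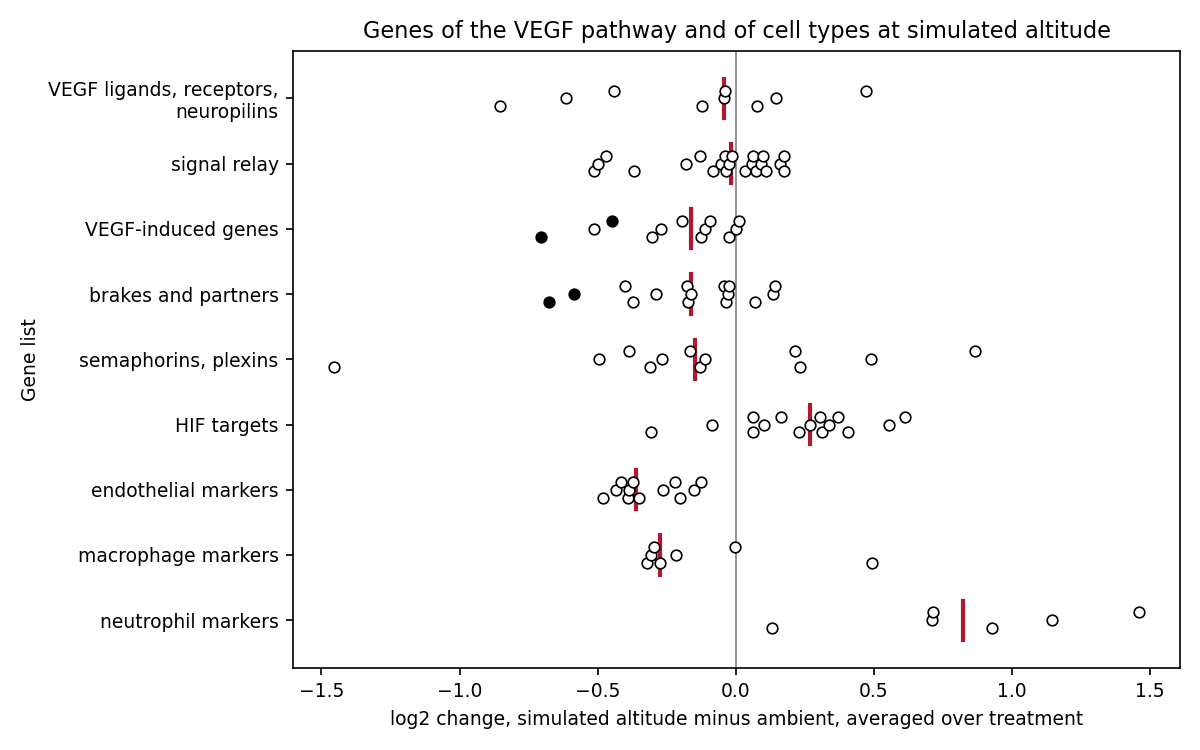
log2 change in the altitude average for each gene of 9 lists, filled where the gene passed edgeR's adjusted threshold, with a red bar at each list's median. The 4 filled points are Adamts9, Dll4, Vash1 and Thbs1, all below 0.

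In HC against MC the counts of calls were also made with the replicate number as a block, since libraries of these 2 groups with the same number deviated together. The labels name no pairing. HI and MI libraries of the same number also deviated together, with correlations of 0.257, 0.0717 and 0.131. The terms of the block were shared by all 4 groups, HI and MI included, which were not taken as paired. The block called 13 genes in HC against MC, against 0 without it, and 155 in the altitude average, against 76. It called none of the 9 genes of the VEGF system in any comparison. With the block the change of Kdr in HC against MC was -0.32 (SE 0.14, edgeR adjusted p = 0.373). Between libraries of the same number, Flt1, Nrp2 and Vegfb were higher in HC in all 3 cases. Nrp1 was lower in HC in all 3, which any numbering would give, since its HC and MC values did not overlap. The share of all genes with the same direction in all 3 was not counted. These counts, and those of Kdr and of the ratio of Flt1 to Kdr, are therefore descriptions only.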

How the data were processed

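The authors deposited counts, unnormalized whole numbers per gene, and FPKM, the same counts scaled by gene length and library total. The submitters' processing notes name build GRCm39 and, without roles, R 3.5.1, DESeq2 1.22.2, HTSeq 0.11.2, HISAT2 2.1.0 and fastp 0.20.1. The sources used here give neither the annotation nor the strandedness. The gene lengths implied by FPKM and counts were whole within 0.01 base for 100% of 229103 values above 0, and 24312 of 35434 genes had any count.

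Counts of the 12 libraries were fitted with edgeR 4.0.16 under R 4.3.3 (TMM factors of 0.925 to 1.03, filterByExpr, quasi-likelihood test, 1 mean per group), after the script was tested on simulated data. A gene was called at an adjusted p (Benjamini-Hochberg, 15269 genes) under 0.05. Levels across genes use FPKM, as do the ratios, which were tested by exact two-sided permutation within the levels of the other factor. Correlations use log2 CPM with a prior count of 2. Alternatives were DESeq2 1.42.0, limma 3.58.1 (voom, or log2 of FPKM plus a pseudocount of 0.1 or 1), other factors and filters, fits of 2 groups, a block for the replicate number, and leaving out each library. The members and lists were chosen with earlier results of these data known. The rule for named genes takes all 9 members, the 3 genes most like each, and up to 4 genes per list with the smallest p, and the pairwise correlations were added after values were seen. A gene that this rule names is not reported here. Exact tests of 3 tumours against 3 cannot go below p = 0.1. The labels name separate mice and no pairing. The replicate numbers were taken to pair HC with MC, because same-numbered libraries correlated in their deviations from group means at 0.278, 0.153 and 0.209. The other groups were not taken as paired, although HI with MI was also above 0 for each number (0.257, 0.0717 and 0.131). MI with MC gave 0.313, -0.0904 and -0.104, and HI with HC gave -0.0208, -0.0745 and 0.244. The replicate block has terms shared by all 4 groups, so it also joins groups that were not taken as paired. Promoter sequences are RefSeq's (GRCm38.p6), matched by symbol for all 9 genes, and genes that overlap members were looked up in GENCODE M21.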

Additional observations from a re-analysis of the deposited data

How the results depend on the processing

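For 9 genes and 3 tumours a group, sensitivity to small changes is limited, and a change missed here is not shown to be absent. DESeq2 called more genes than edgeR in every comparison (379 in HI against MI, 307 in HC against MC, 18 in HI against HC, 22 in MI against MC, 845 in the altitude average, 11 in the IOX2 average, 30 in the interaction), among them 2 of the 9 in HI against MI and 3 in the altitude average. Of genes called in HI against MI (0 as reported), DESeq2 size factors gave 1, no filter 16, a filter of 1 CPM in 3 libraries 2, and FPKM without a filter 4. In HC against MC (0) no filter gave 2, FPKM without a filter 3, and a fit of these 2 groups 63. FPKM without a filter gave 5 in HI against HC (0), 9 in MI against MC (4), 12 in the altitude average (76), 12 in the IOX2 average (6) and 4 in the interaction (0). In MI against MC limma-voom gave 0 and a fit of 2 groups 2. In the altitude average no filter gave 166, limma-voom 20 and limma on log2(FPKM + 1) 14.

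The replicate block gave 13 genes in HC against MC, 3 in HI against HC and 155 in the altitude average. It changed the side of the threshold for none of the 9 genes.

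Leaving out 1 library at a time, genes called ranged from 0 to 520 in HI against MI (520 without MI2), 0 to 40 in HC against MC (40 without HI1), 0 to 6 in MI against MC, 2 to 339 in the altitude average (339 without HI3, 2 without MC2 or MC3) and 0 to 2 in the interaction. Of the 9 genes, 0 to 2 were called in HI against MI and 0 to 1 in the altitude average. Ratio differences (log2) ranged from 0.38 to 0.64 for Flt1 to Kdr with altitude and -0.029 to 0.20 with IOX2, 0.25 to 0.49 for Vegfa to the other ligands with IOX2, and -1.59 to -0.99 for Nrp1 to Nrp2 with altitude and -0.35 to 0.25 with IOX2. Among the changes printed in the text, those that crossed 0 were of Vegfa (-0.53 to 0.22 in HC against MC, -0.093 to 0.65 in HI against HC, -0.37 to 0.0085 in the altitude average), Flt1 (-0.34 to 0.048 in HI against HC, -0.031 to 0.16 in the altitude average), Kdr (-0.016 to 0.22) and Flt4 (-0.15 to 0.37) in MI against MC, Vegfc (-0.31 to 0.085 in the altitude average, -0.060 to 0.34 in the IOX2 average) and Pgf (-0.15 to 0.088 in the altitude average). Within strata, the IOX2 difference of Flt1 to Kdr was -0.0023 at simulated altitude alone, and that of Kdr to endothelial markers -0.026 at ambient altitude alone, with 0.039 for altitude in IOX2 mice alone. The altitude averages of Kdr, Flt4, Nrp1 and Nrp2 kept their sign in all 21 alternatives. Of 29 further changes of the 9 genes that are not printed, 23 changed sign in some setting and 0 were called in any. The cause of these differences was not tested.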
